A study of Mus musculus with 11 samples.

Results

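The type I interferon response genes are 39 mouse genes that are switched on by interferons, and they were followed here in the hearts of mice after myocardial infarction (MI). They were taken by symbol from a list of interferon-stimulated genes that was drawn up with earlier results of these data known, and all 39 were found among the 55513 genes of the count table. The count table covers the hearts of 11 C57BL/6J mice, all female and operated at an age of 8 weeks, collected at day 3. In 8 of them the left anterior descending coronary artery was permanently ligated, and the infarct was excised along with its border zone. Of these, 4 mice received the ADAM10 inhibitor GI254023X (A10i, 100 mg/kg) and 4 received its solvent DMSO, each from osmotic minipumps that start to release with a delay. The other 3 mice (Sham) were operated without ligation, received DMSO as well and gave healthy heart tissue. ADAM10 is a membrane protease that sheds the outer parts of other membrane proteins. All mice carried the same genetic background, and no transgene or deletion was used.

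Type I interferons are secreted when sensors such as MDA5, RIG-I or cGAS detect nucleic acids in the cytosol. They bind the receptor IFNAR1 and IFNAR2, whose kinases JAK1 and TYK2 set off the assembly of ISGF3, a complex holding STAT2 and IRF9 that turns on the interferon-stimulated genes. Interferon gamma acts through another receptor and induces part of the same genes, above all the guanylate-binding proteins and the chemokines Cxcl9 and Cxcl10. In infarcted hearts, DNA from dying cells that macrophages take up is a known trigger of this response.

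ISGF3 binds the interferon-stimulated response element (ISRE), which was searched in the promoters of the members as GAAA, any 2 bases and GAAA, on both strands. RefSeq promoters (GRCm38.p6, 250 bases before to 50 bases after a gene's start) matched 30 of the 39 members, with 34 windows. The ISRE letters occurred in 18 of these 30 genes (60.0%), against 3.99% of the 27025 genes with a promoter window, and in 19 of 34 windows against 3.44% of all 32851 windows. The gamma-activated sequence, an element of genes induced by interferon gamma that was searched as TTC, any 3 bases and GAA, occurred in 6 of 30 members (20%) and in 9.55% of all genes. A match is only a match of letters, and binding was not measured. The promoters of 8 members on which the results below turn, or that show how the copies of a family resemble each other, are printed in the direction of the gene. The ISRE letters are in capitals (GAAA or, on the opposite strand, TTTC), with 20 bases on each side, or in Irgm1 the bases up to its RefSeq start.
Isg15 (chr4:156200855-156200916, minus strand): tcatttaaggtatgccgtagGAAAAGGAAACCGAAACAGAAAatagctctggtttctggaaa
Rsad2 (chr12:26456543-26456592, minus strand): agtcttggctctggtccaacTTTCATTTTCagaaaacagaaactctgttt
Cxcl10 (chr5:92349073-92349122, minus strand): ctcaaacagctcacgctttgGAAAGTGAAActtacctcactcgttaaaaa
Oas3 (chr5:120777705-120777754, minus strand): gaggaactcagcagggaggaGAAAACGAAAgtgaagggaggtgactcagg
Ifit1 (chr19:34640784-34640833, plus strand): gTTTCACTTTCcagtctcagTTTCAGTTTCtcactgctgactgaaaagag
Ifit3 (chr19:34583387-34583436, plus strand): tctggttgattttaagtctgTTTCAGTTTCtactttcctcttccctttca
Ifit3b (chr19:34607783-34607832, plus strand): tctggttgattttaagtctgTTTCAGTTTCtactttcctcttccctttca
Irgm1 (chr11:48871421-48871470, minus strand): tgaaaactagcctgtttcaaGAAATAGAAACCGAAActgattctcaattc
In Isg15, 3 overlapping matches formed a run of GAAA boxes that began 78 bases before the start. The printed match began 30 bases before the start in Irgm1, 75 in Oas3, 85 in Ifit1, 120 in Rsad2 and 213 in Cxcl10. These starts are those of RefSeq. The counted Irgm1 gene, on the minus strand, reaches to base 48871683, so its printed stretch lies inside the counted gene. The printed stretches of Ifit3 and Ifit3b were identical, at 122 and 154 bases before their starts, and thus outside the counted parts. Reads of near-identical gene copies can be lost or split when only uniquely aligned reads are counted. How alike the counted parts of the Ifit, Oas and Gbp families are was not examined, so their counts are uncertain in this respect. In 12 of the 30 members, among them Irf7, Ifit2, Cmpk2, Ifi44 and Cxcl9, the letters were not found in the window.

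All 39 members had counts in all 11 libraries, from 6 to 1218 counts in a library, and all 39 passed the filter on low counts in each comparison. Total counts lay between 21702659 and 29511782 per library. The values below are normalized counts, that is, counts scaled by library size and TMM factors to the mean library. They are listed in the order S1, S2 and S3 for sham mice, A105, A127, A128 and A129 for DMSO mice, and A116, A117, A119 and A120 for A10i mice. Differences are log2 fold changes with their standard errors (SE), on which a value of 1 stands for a 2-fold change. A gene was called where edgeR's quasi-likelihood F-test gave an adjusted p below 0.01. Since whole tissue was sequenced, fewer cells of a type and less RNA per cell cannot be told apart in any of these values.

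After infarction, single interferon response genes moved in opposite directions. In DMSO against sham mice, Zbp1, Oas3, Ifi27l2a and Cxcl10 rose and Rsad2, Cmpk2 and Xaf1 fell, and the other 32 members were not called. The 4 higher members stand beside 12.9% of all 17119 genes tested that were higher, and the 3 lower members beside 9.6% that were lower, so that the members were called about as often as other genes. Of the 39 log2 fold changes, 19 were above 0, where 50.2% of all genes were, and the median was -0.05 against 0.0021 over all genes tested. The values of all 4 DMSO mice lay above those of all 3 sham mice in 5 members (24.8% of all genes) and below them in 12 members (23.9%). Without sham mouse S1 or S3 the higher members were 2, and the lower members were 1 without S1 or S2 and 6 without DMSO mouse A127. Shares of all genes called without these mice are not given, so these counts do not set the members apart. With DESeq2's Wald test 8 members were lower, beside 11.4% of 19175 genes.

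A10i mice were compared with the same 3 sham mice, so that this comparison is not independent of the one before. Zbp1, Oas3, Ifi27l2a and Cxcl10 were again higher, beside 13.8% of 17004 genes tested, and 0 members were lower, beside 9.09%. The median log2 fold change was 0.28, against -0.0056 over all genes, and 29 of 39 members were above 0 (49.5% of all genes). The 2 groups did not overlap in 8 members that were higher (24.9% of all genes) and in 1 that was lower, Rsad2 (23.1%). The count of higher members depended on single mice. It was 11 without A10i mouse A117, 1 without sham mouse S1, and 2 without S2 or without S3. No share of all genes is given for these fits either, so these counts do not set the members apart. With DESeq2's Wald test, 11 members were higher, beside 14.8% of 19367 genes.

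**Figure D1:**
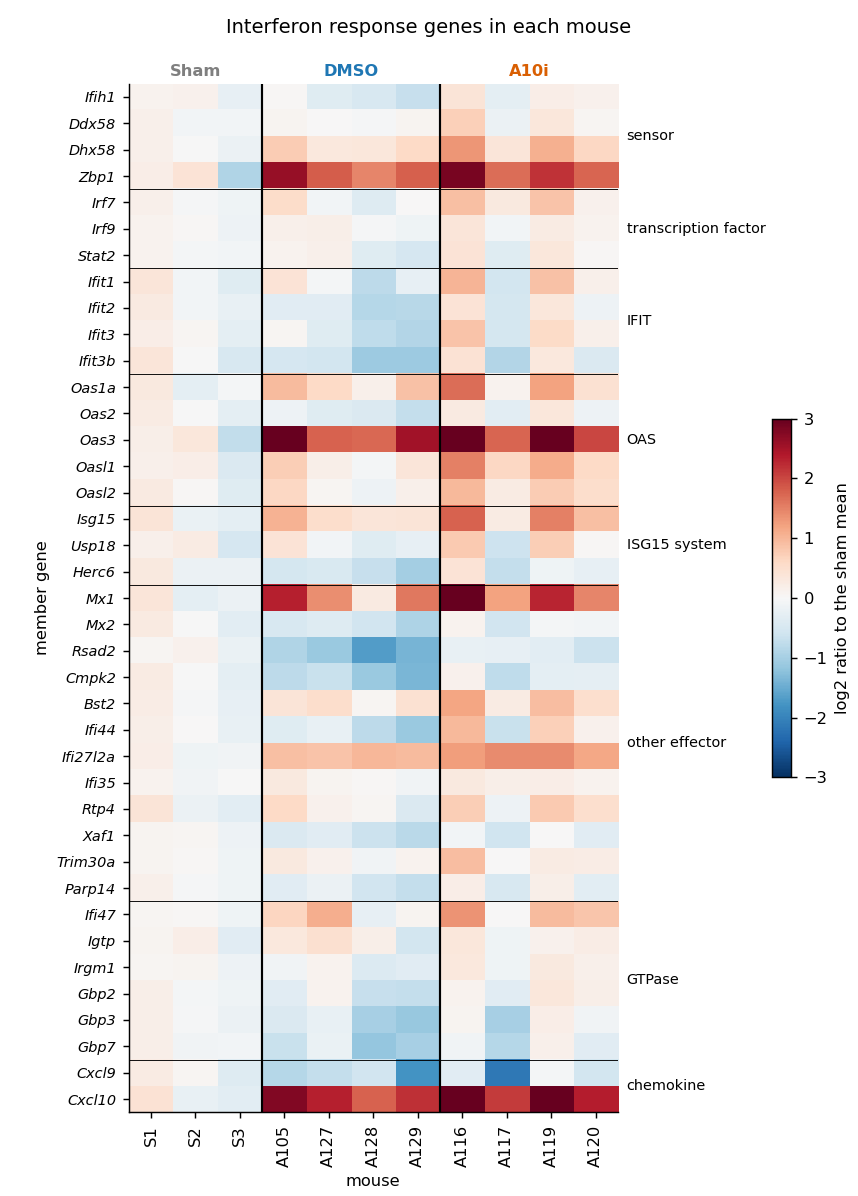
Each cell is the log2 ratio of a member's normalized count in 1 mouse to the mean of the 3 sham mice, with 1 added to both, from blue (lower) over white to red (higher). Colours end at -3 and 3. Members are rows, grouped by role, and mice are columns. Zbp1, Oas3 and Cxcl10 are red in the infarcted mice, and so is Mx1 except in A128, where it is nearly white (0.26). Rsad2 is blue in all DMSO mice, and the columns of A116 and A119 are redder than that of A117.

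Between infarcted mice, 38 of the 39 members were higher on average with A10i than with DMSO, but none passed the threshold. Of 16793 genes tested, edgeR called 0.0% in either direction, so a count of 0 called members does not set them apart. The median log2 fold change of the members was 0.46, against 0.0034 over all genes tested, and 50.7% of all genes were above 0. At an unadjusted p under 0.05, 16 members were higher and 0 were lower, beside 7.1% of all genes that were higher. Igtp, with -0.00027 ± 0.20, was the member that was not higher. Values of A10i and DMSO mice did not overlap in Rsad2 and Ifi27l2a, 2 of 39 members, beside 4.13% of all genes. DESeq2's Wald test, run as an alternative, called these same 2 members higher (adjusted p of 0.000376 and 0.00864), beside 0.573% of 18161 genes.

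**Figure D2:**
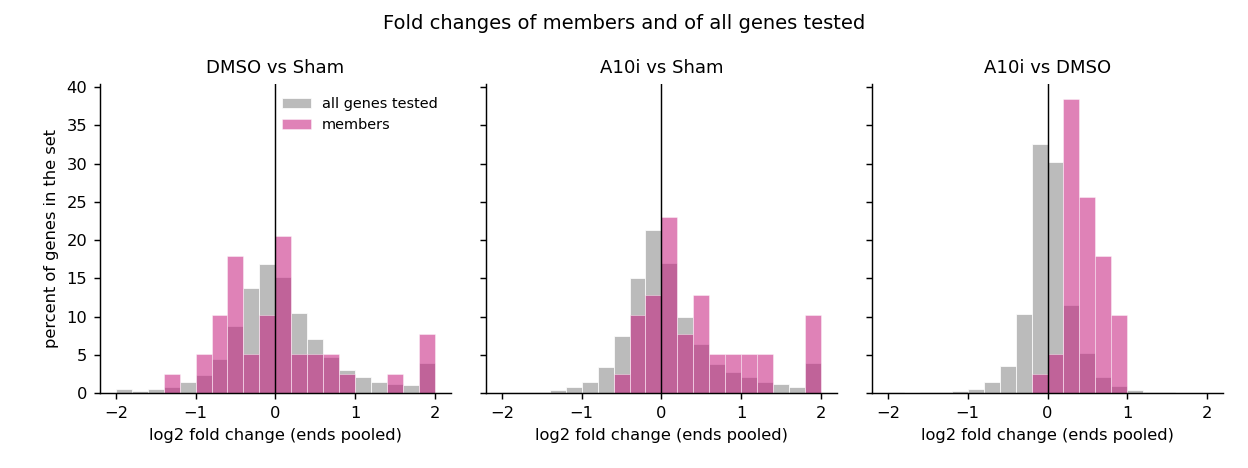
Percent of genes (y) in bins of the log2 fold change (x, 0.2 wide, values beyond -2 and 2 pooled in the last bins), for all genes tested in grey and the 39 members in pink. Members spread on both sides of 0 in DMSO against sham mice, while 38 of 39 lie above 0 in A10i against DMSO mice.

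The A10i mice differed widely among themselves in the members. A116 had the highest value of the 8 infarcted mice in 29 members and A119 in 8. A116 lay above every DMSO mouse in 36 members, A119 in 33, A120 in 15 and A117 in 2. A117 was the lowest of the A10i mice in 34 members and lay within or below the range of the DMSO mice in 37. Among DMSO mice, A128 and A129 each had the lowest value of all 8 in 16 members. No share of all genes was computed for these counts of single mice, and members that move together are not independent. The members also moved together among sham mice, with S1 above the sham mean in all 39 members and S3 above it in none. Over the members, the median coefficient of variation reached 17.1% in sham mice, 23.5% in DMSO mice and 28.9% in A10i mice, and it was highest in A10i mice in 25 members. It was not computed over all genes. There, the chi-square per degree of freedom between pairs of mice, a measure of disagreement, was 9.01 to 43.8 in A10i and 27.4 to 60.8 in DMSO mice. The number of members with an unadjusted p under 0.05 was 16 with all mice, 29 without A117 and 5 without A116. It was 7 without A119, 6 without A128 and 7 without A129. The share of all genes was not computed for these omissions, so the counts do not set the members apart. The median fold change lay between 0.33 (without A116) and 0.58 (without A117) when each mouse was left out.

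Among the effectors, Rsad2 encodes viperin, an enzyme that makes a nucleotide that stops viral RNA synthesis. The gene lies on chromosome 12 (GRCm38, 26442746 to 26456452, minus strand, ENSMUSG00000020641). Its normalized counts were 910.2, 960.1 and 758 in sham, 471, 407, 272 and 332 in DMSO and 754, 742, 699.9 and 557 in A10i mice. The 3 groups did not overlap, with sham mice highest and DMSO mice lowest, but the lowest sham mouse (758) and the highest A10i mouse (754) were close. The share of all genes with 3 separate groups was not computed. Rsad2 fell in DMSO against sham mice (log2 fold change -1.25 ± 0.17, SE, adjusted p = 0.00075), and this call held under all 13 alternatives. In A10i against sham mice the log2 fold change was -0.34 ± 0.12 (adjusted p = 0.0397), and between A10i and DMSO mice it was 0.90 ± 0.17 (adjusted p = 0.0778), which missed the threshold. Cmpk2, which encodes a mitochondrial nucleotide kinase, lies close to Rsad2 in the opposite direction (26469204 to 26479837). It had 442, 374 and 306 normalized counts in sham, 217, 235, 171 and 144 in DMSO and 409, 219, 306 and 312 in A10i mice. All DMSO mice lay below all sham mice, and A10i mouse A117 lay within the DMSO range. Cmpk2 fell in DMSO against sham mice (-0.97 ± 0.18, adjusted p = 0.0029), whereas the differences of A10i from sham (-0.26 ± 0.20, adjusted p = 0.331) and from DMSO mice (0.70 ± 0.20, adjusted p = 0.181) were not called. Without sham mouse S1, and likewise without S2, the call in DMSO mice was lost.

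Ifi27l2a, a short interferon-induced gene on chromosome 12 (103442167 to 103443680, ENSMUSG00000079017), separated the 3 groups in another order. It had 453, 359 and 367 normalized counts in sham, 739.7, 710.4, 790.0 and 756 in DMSO and 941, 1049, 1054 and 875 in A10i mice. Sham, DMSO and A10i mice thus followed each other from low to high without overlap. Again, the share of all genes with 3 separate groups was not computed. The log2 fold change was 0.93 ± 0.10 in DMSO (adjusted p = 0.000261) and 1.32 ± 0.10 in A10i mice (adjusted p = 7.57e-05) against sham, and both calls held under all 13 alternatives. Between A10i and DMSO mice it was 0.39 ± 0.08 (adjusted p = 0.0978). Here A117, the lowest A10i mouse in most members, was the second highest of all mice. In FPKM, a level scaled by exon length and library size, Ifi27l2a was the most abundant member, at 63.2 ± 2.80 FPKM in DMSO mice (SD, n = 4), followed by Bst2 at 24.3 ± 3.24 FPKM.

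Xaf1, which encodes a factor that promotes cell death, had 366, 361 and 309 normalized counts in sham, 256, 273, 219 and 196 in DMSO and 324, 229, 347 and 275 in A10i mice. It fell in DMSO against sham mice (-0.55 ± 0.13, adjusted p = 0.0092), with no overlap, and this call was lost under 8 of 13 alternatives, among them the omission of S1, S2, S3, A105, A128 or A129. Mx1 encodes a GTPase that traps viral particles and is known to be defective in most inbred mouse strains. It had 27.7, 17.2 and 18.6 in sham, 110.0, 57.4, 25.5 and 65.2 in DMSO and 218, 50.4, 108 and 59.8 in A10i mice. DMSO mouse A128 overlapped the sham mice, all A10i mice lay above them, and neither difference was called (1.60 ± 0.46 in DMSO, adjusted p = 0.0221, and 2.38 ± 0.56 in A10i mice, adjusted p = 0.0107). Its relative Mx2 was lower on average in DMSO than in sham mice (-0.59, adjusted p = 0.0504). Parp14, an ADP-ribosyltransferase and the member with the highest mean count of the effectors, had 1184, 1053 and 978 in sham, 849, 949, 714 and 654 in DMSO and 1235, 769.5, 1219 and 858 in A10i mice. All DMSO mice lay below all sham mice (-0.44 ± 0.13, adjusted p = 0.0212), and A10i mice spread over both ranges.

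Of the 5 other effectors, Ifi44 had the highest log2 fold change of all members between A10i and DMSO mice, 0.99 ± 0.34 (adjusted p = 0.242), with 119.7, 132, 88.4 and 70.3 normalized counts in DMSO and 303, 95.9, 251 and 167 in A10i mice. A117 lay inside the DMSO range. Bst2, the tetherin that holds budding viruses at the cell surface, had 435 ± 70.6 (SD, n = 3) in sham, 561 ± 74.7 (SD, n = 4) in DMSO and 734 ± 212 (SD, n = 4) in A10i mice. Between A10i and DMSO mice the log2 fold change was 0.28 in Trim30a, 0.39 in Rtp4 and 0.11 in Ifi35. Ifi35 had 420.0 ± 48.3 in DMSO and 453 ± 23.4 in A10i mice (SD, n = 4 each).

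**Figure D3:**
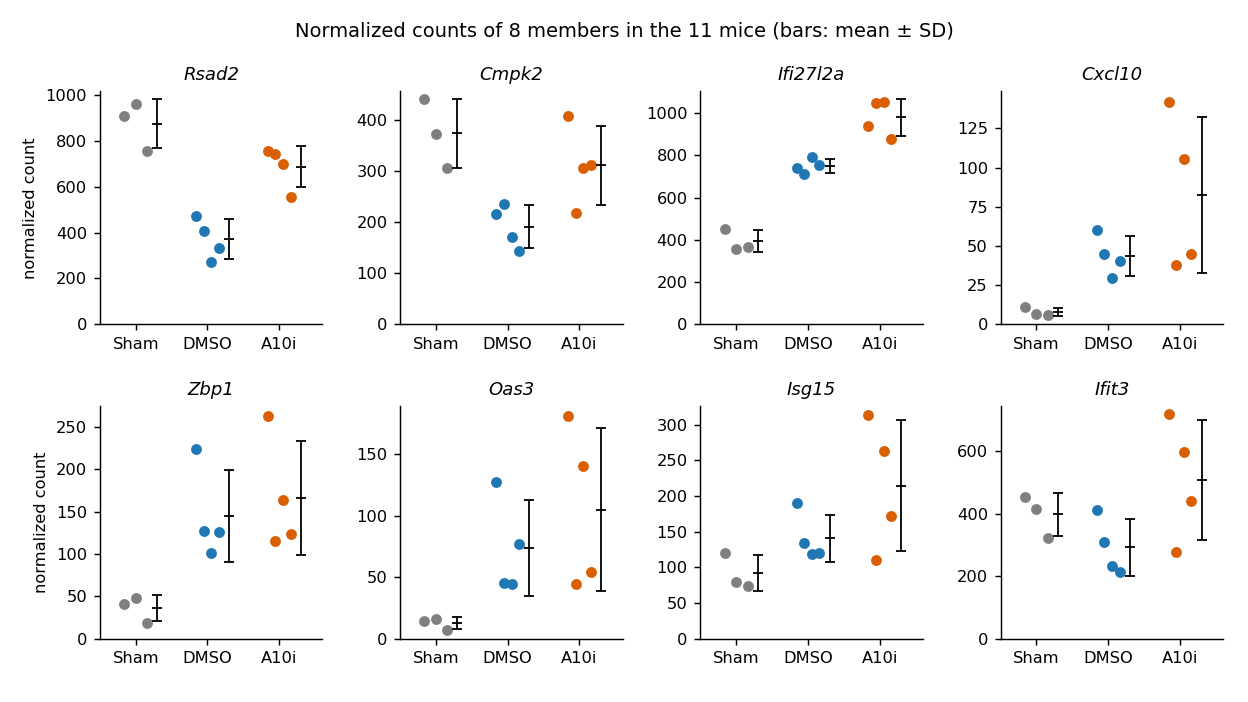
Normalized counts (y, from 0) of 8 members in each of the 11 mice, with points for mice and bars for the mean ± SD of 3 sham, 4 DMSO and 4 A10i mice. Rsad2 and Ifi27l2a show 3 groups that do not overlap, and in Cxcl10, Isg15 and Ifit3 the A10i mice are split, with A116 and A119 high and A117 low.

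The sensors detect foreign or misplaced nucleic acids. Zbp1, which binds the Z form of nucleic acids and can start necroptosis, had 41.0, 47.8 and 18.6 normalized counts in sham, 224, 127.7, 101 and 125 in DMSO and 263, 115.7, 164 and 123 in A10i mice. It rose in DMSO (2.00 ± 0.37, adjusted p = 0.00293) and in A10i mice (2.21 ± 0.39, adjusted p = 0.00256) against sham, with no overlap in either. The call in DMSO mice was lost without S1 and without S3, and that in A10i mice without S1 and without the filter on low counts. Between A10i and DMSO mice its log2 fold change of 0.21 turned to -0.10 without A116. Ifih1, which encodes MDA5, the sensor of long double-stranded RNA, had 417, 422 and 326 in sham, 396, 303, 279.8 and 239 in DMSO and 509.9, 317, 447 and 424 in A10i mice. The DMSO range reached below the sham range and was not called (-0.36, adjusted p = 0.115), nor was A10i against DMSO (0.48 ± 0.18, adjusted p = 0.268). Ddx58, which encodes RIG-I, had 543, 461 and 462 in sham, 514, 496, 474 and 516 in DMSO and 803, 432, 618 and 506 in A10i mice, so that A116 stood above all other mice. Dhx58, which encodes their regulator LGP2, had 75.6 ± 8.57 (SD, n = 3) in sham, 109 ± 16.3 (SD, n = 4) in DMSO and 141 ± 41.8 (SD, n = 4) in A10i mice. All infarcted mice lay above all sham mice, and neither comparison was called (adjusted p = 0.0444 and 0.0119).

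None of the 3 transcription factors was called in any comparison. Of all genes tested, 22.5% were called in DMSO against sham, 22.8% in A10i against sham and 0.0% in A10i against DMSO mice. Irf7, which amplifies interferon production, had 468, 409 and 380.4 normalized counts in sham, 616, 398, 322 and 422 in DMSO and 783, 510.4, 759 and 455 in A10i mice. The ranges overlapped, and A116 and A119 lay above all others. Its log2 fold change was 0.06 ± 0.20 in DMSO (adjusted p = 0.824) and 0.59 ± 0.20 in A10i mice (adjusted p = 0.0428) against sham. Stat2 had 729.7, 649 and 639 in sham, 724, 751, 519.6 and 478 in DMSO and 889, 522, 855 and 692 in A10i mice, and Irf9 had means of 568 ± 54.1, 587 ± 59.4 and 636 ± 83.0 (SD). For these partners in ISGF3 no adjusted p was below 0.259 in any comparison, and A10i against DMSO gave 0.26 ± 0.20 for Stat2 and 0.12 ± 0.11 for Irf9.

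The IFIT proteins bind viral RNA and block its translation, and the 4 genes lie on chromosome 19. None was called in any comparison, beside 22.5% (DMSO against sham), 22.8% (A10i against sham) and 0.0% (A10i against DMSO) of all genes. Ifit2 had 777, 610.1 and 554 normalized counts in sham, 510.0, 514, 357 and 361 in DMSO and 867, 447, 820.2 and 582 in A10i mice, so that all DMSO mice lay below all sham mice (-0.57 ± 0.17, adjusted p = 0.0229). Ifit3b had 219, 170.2 and 123 in sham, 121, 116.5, 79.1 and 80.3 in DMSO and 229, 92.0, 211 and 125 in A10i mice, again with all DMSO mice below all sham mice (-0.79 ± 0.23, adjusted p = 0.0228). The 4 IFIT genes shared the order of the A10i mice, from high to low A116, A119, A120 and A117. Their log2 fold changes between A10i and DMSO mice were 0.62 for Ifit1, 0.64 for Ifit2, 0.80 for Ifit3 and 0.73 for Ifit3b, and the lowest adjusted p was 0.24.

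The oligoadenylate synthetases (OAS) sense double-stranded RNA and activate RNase L. Oas3 had 14.4, 16.3 and 7.22 normalized counts in sham, 127.2, 45.4, 44.2 and 77.3 in DMSO and 180.4, 44.5, 140.4 and 54.0 in A10i mice. It rose in DMSO (2.51 ± 0.47, adjusted p = 0.00315) and in A10i mice (3.04 ± 0.61, adjusted p = 0.00506) against sham. The sham level was the lowest of any member per length, at 0.0698 ± 0.0264 FPKM (SD, n = 3), and the calls were lost when any of the 3 sham mice was left out, and in A10i mice also without the filter. Oasl2 had 588, 499 and 378 in sham, 752, 509, 441 and 546 in DMSO and 958, 583, 823 and 704 in A10i mice. Oasl1, which is known to hold back the translation of Irf7, had 63.1, 65.0 and 41.2 in sham, 94.9, 64.3, 54.4 and 73.3 in DMSO and 162, 88.0, 122 and 86.2 in A10i mice. Both overlapped between groups except that all A10i mice lay above all sham mice in Oasl1, and the lowest adjusted p was 0.0121 (Oasl1, A10i against sham, 1.03 ± 0.27). Oas1a was higher (0.67, adjusted p = 0.0377) and Oas2 lower (-0.40, adjusted p = 0.0617) on average in DMSO than in sham mice, and neither was called.

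ISG15 is a ubiquitin-like protein that is attached to other proteins, in the mouse by the ligase HERC6, and removed by USP18, which also restrains the interferon receptor. Isg15 (chromosome 4, 156199455 to 156200796, ENSMUSG00000035692) had 121, 80.3 and 74.2 normalized counts in sham, 189.8, 134, 119.1 and 120.4 in DMSO and 314, 109.8, 263 and 172 in A10i mice. A116 and A119 lay above all other mice and A117 below all DMSO mice, and no comparison was called (0.61 ± 0.23 in DMSO, adjusted p = 0.0592, and 1.24 ± 0.36 in A10i mice, adjusted p = 0.0244, against sham). Herc6 had 235, 170.2 and 168 in sham, 133, 138, 118 and 94.3 in DMSO and 254, 116.7, 175 and 161 in A10i mice. All DMSO mice lay below all sham mice (-0.66 ± 0.18, adjusted p = 0.0157). Usp18 had 121 ± 31.5 (SD, n = 3), 117.4 ± 29.4 (SD, n = 4) and 153 ± 63.2 (SD, n = 4) in sham, DMSO and A10i mice.

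The GTPases of this list are the immunity-related Ifi47, Igtp and Irgm1 and the guanylate-binding proteins Gbp2, Gbp3 and Gbp7. Their families take part in the defence against microbes held in vacuoles and respond strongly to interferon gamma. None of the 6 was called in any comparison. The shares of all genes called were 22.5% (DMSO against sham), 22.8% (A10i against sham) and 0.0% (A10i against DMSO). Gbp2 had 762, 648 and 612 normalized counts in sham, 536, 728, 414 and 407 in DMSO and 723, 529, 849 and 765 in A10i mice. Gbp7 had 817, 671 and 689.7 in sham, 456, 629, 324 and 361 in DMSO and 674, 404, 805 and 576 in A10i mice, with all DMSO mice below all sham mice (-0.72 ± 0.21, adjusted p = 0.0224). In both, A127 stood highest and A128 and A129 lowest among the DMSO mice, and Gbp3 followed the same order (-0.65 ± 0.21, adjusted p = 0.0361). Irgm1 had 613, 628 and 534 in sham, 548, 632, 448 and 467 in DMSO and 740.0, 539, 730.5 and 653 in A10i mice, and its difference between A10i and DMSO mice was 0.35 ± 0.13 (adjusted p = 0.287). Ifi47 had means of 90.8 ± 6.38, 127.5 ± 52.3 and 166 ± 58.1, and Igtp of 368 ± 68.9, 408 ± 112 and 408 ± 53.2 (SD) in sham, DMSO and A10i mice.

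The chemokines Cxcl9 and Cxcl10 attract T and NK cells through the receptor CXCR3, and they lie close to each other on chromosome 5, with Cxcl10 at 92346638 to 92348889 (ENSMUSG00000034855). Cxcl10 had 11.1, 6.69 and 6.19 normalized counts in sham, 60.4, 44.6, 29.8 and 40.1 in DMSO and 142, 37.6, 106 and 44.8 in A10i mice. All infarcted mice lay above all sham mice, and A116 and A119 above all others. Cxcl10 rose in DMSO (2.44 ± 0.36, adjusted p = 0.000866) and in A10i mice (3.37 ± 0.60, adjusted p = 0.00271) against sham, and A10i against DMSO gave 0.93 ± 0.42 (adjusted p = 0.372). The call in A10i mice was lost when any of the 3 sham mice was left out and without the filter, and that in DMSO mice was kept under all 12 alternatives in which it was tested. Cxcl9 had 149, 131 and 94.8 in sham, 69.0, 76.3, 83.3 and 35.1 in DMSO and 98.3, 27.7, 120.3 and 85.1 in A10i mice. All DMSO mice lay below all sham mice, opposite to Cxcl10, but the difference was not called (-0.92 ± 0.28, adjusted p = 0.0252).

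**Figure D4:**
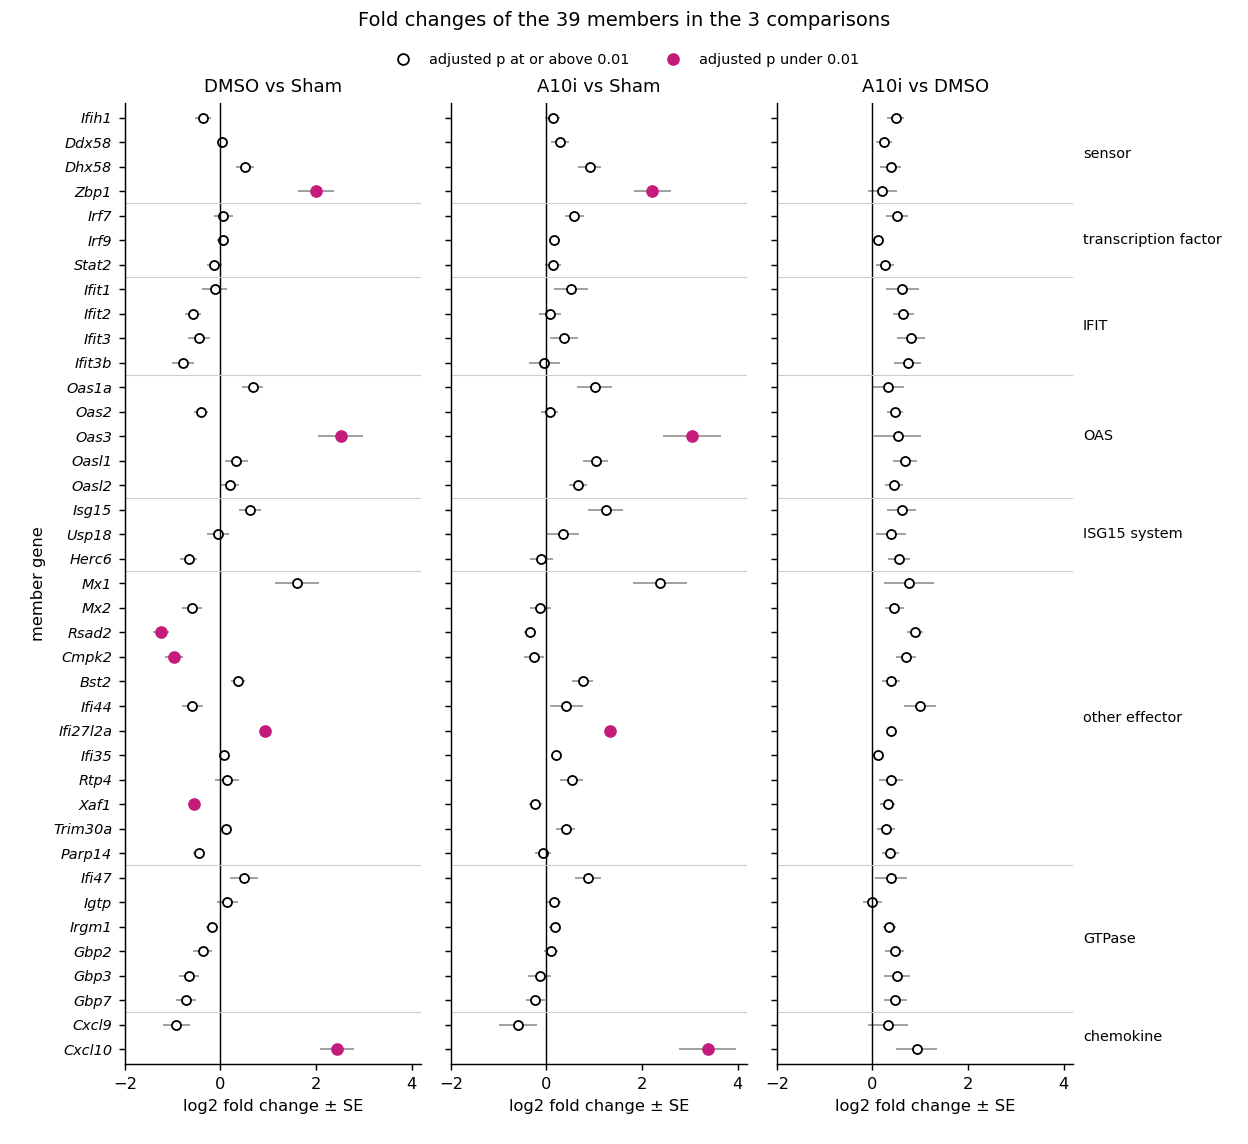
Log2 fold change (x) with SE bars for each of the 39 members (y, grouped by role) in DMSO against sham, A10i against sham and A10i against DMSO mice, with filled points for an adjusted p under 0.01 (edgeR). Filled points are 7, 4 and 0, and in A10i against DMSO mice all points but Igtp lie to the right of 0.

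Across the members, the mean of A10i mice lay above that of sham mice and the mean of DMSO mice below it in 10 members, such as Ifit2 and Ifi44. In another 10, such as Rsad2 and Cmpk2, the order was sham, A10i and DMSO from high to low. In 18 members, such as Isg15, Zbp1 and Cxcl10, it was A10i, DMSO and sham. The remaining member, Igtp, had the highest mean in DMSO mice. The share of all genes with each order was not computed. Most of the differences behind these orders were not called. That of Ifit2 between A10i and sham mice, for example, was 0.07 ± 0.23 (adjusted p = 0.822).

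The other genes of the interferon pathway were taken from a written list, of which 93 passed the filter in each comparison. The ligands did not. Of 18 type I interferon genes, 14 had 0 counts in every library, and Ifna2, Ifna13, Ifna16 and Ifnab had 1 count in a single library each. Ifng had 1 count in S1 and 1 in A119, and Ifnl2 and Ifnl3 had 0 throughout. At this depth, 0 counts in a library allow up to 3 counts, so that low levels of interferon transcripts were not detectable. Cxcr3, the receptor of Cxcl9 and Cxcl10, had 0 to 9 counts per library and was not tested.

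In DMSO against sham mice, 15 of the 93 genes rose and 8 fell, beside 12.9% and 9.6% of all genes tested, and in A10i against sham mice 25 rose and 2 fell, beside 13.8% and 9.09%. The share that rose in DMSO mice was thus near that of all genes. The chains of the type I interferon receptor were not called in DMSO mice (0.26 for Ifnar1, adjusted p = 0.0801, and 0.23 for Ifnar2, adjusted p = 0.103), and Ifnar2 rose in A10i mice (0.39 ± 0.09, adjusted p = 0.00603). Ifngr2 (-0.46 in DMSO and -0.45 in A10i mice) and Il10rb (-0.50 and -0.47), receptor chains for interferon gamma and lambda, fell in both comparisons. None of the 3 kinases Jak1, Jak2 and Tyk2 was called. Of 5 feedback inhibitors, Socs1, Socs3, Ptpn2 and Ptpn6 rose in both comparisons with sham, and Socs3 most, from 91.1 ± 17.0 (SD, n = 3) normalized counts in sham to 1144 ± 333 (SD, n = 4) in DMSO and 553 ± 182 (SD, n = 4) in A10i mice. Socs3 is also induced by interleukin 6. Among sensors and adaptors, Sting1 (1.76 and 1.82), Ikbke (1.74 and 1.35) and Myd88 (1.16 and 0.82) rose in both, while Mavs, the adaptor of MDA5 and RIG-I, fell in DMSO mice (-0.53 ± 0.09, adjusted p = 0.00167). Of the other transcription factors, Irf5 rose in both (1.30 and 1.31) and Irf8 in A10i mice (1.19), and Irf3 was not called (0.10 and 0.15).

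Of 42 other interferon-stimulated genes, 7 rose and 4 fell in DMSO mice and 12 rose and 0 fell in A10i mice against sham, beside the same shares of all genes, to which those in DMSO mice were close. Slfn1 (4.08 and 2.94), Ifitm2 (0.89 and 0.82) and Ifitm3 (1.10 and 1.04) rose in both. Mndal (-0.996), Ifi203 (-0.92) and Sp100 (-0.65) fell in DMSO mice. Of the 11 other GTPases tested, Gbp9 fell in DMSO mice (-0.75) and Gbp6 (0.90) and Gbp10 (0.89) rose in A10i mice. Of 10 genes of antigen presentation by class I molecules, H2-D1 rose in A10i mice (0.42 ± 0.09, adjusted p = 0.00628) and none was called in DMSO mice. Between A10i and DMSO mice 0 of the 93 genes were called, beside 0.0% of all genes, 72 were above 0 (50.7% of all genes) and the median log2 fold change was 0.18 (0.0034 over all genes). At an unadjusted p under 0.05, 23 were higher and 4 lower, beside 7.1% and 6.73% of all genes. Of the genes named by the rule, those farthest from 0 were Slfn1 (-1.14 ± 0.34) and the DNA sensor Tlr9 (1.11 ± 0.41), with adjusted p = 0.19 and 0.276.

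Markers of cell types differed between the same groups, and their part in the member results was not tested. No marker of the 9 lists was at 0 in all libraries. Summed normalized counts of 12 neutrophil markers were 115 to 162 in sham, 2676 to 5355 in DMSO and 612 to 2027 in A10i mice, and all 11 that passed the filter were lower in A10i than in DMSO mice (median log2 fold change -1.69), with none called. The sum of 13 macrophage markers was 9015 to 9488 in sham, 11333 to 16436 in DMSO and 14606 to 22752 in A10i mice. All 13 were higher with A10i than with DMSO (median 0.42), with none called. In this comparison edgeR called 0.0% of 16793 genes, so that 0 called markers say nothing particular about either list. Of all genes, 50.7% were above 0. A116 had the highest macrophage sum and A119, the mouse with the second highest member sum, the lowest of the A10i mice. Cardiomyocyte markers summed to 2536710 to 2568380 in sham, 1138340 to 1707060 in DMSO and 1462680 to 1998500 in A10i mice, and endothelial markers to 26259 to 27441, 22133 to 25869.7 and 25533 to 28355. Fibroblast markers summed to 22621 to 23867, 32555 to 101604 and 79094 to 151189, with A116 highest, and monocyte markers to 2307 to 2614, 5916 to 10539.6 and 4920 to 8962.

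The summed counts of the 4 B cell markers (Cd79a, Cd79b, Ms4a1 and Ighm), most of which were counts of Ighm, had the same order of mice as the summed members within each of the 3 groups (sums of T and NK cell markers in 2, and the other 7 lists in 0), which was seen after the values were known, and their part in the member results was not tested. The single markers did not all have this order: Ighm, for example, had 106, 108, 79.9 and 81.3 normalized counts in DMSO mice. The 4 summed to 247, 215 and 208 normalized counts in sham, 141, 134, 87.6 and 104 in DMSO and 284, 114, 254 and 167 in A10i mice. The 39 members summed to 15242, 13481 and 11862 in sham, 14056, 13349.6, 10356 and 10511 in DMSO, and 20006, 12037, 18305 and 14425 in A10i mice. The order of both sums was thus S1, S2 and S3, then A105, A127, A129 and A128, then A116, A119, A120 and A117 from high to low. Markers of T and NK cells were near the limit of the counts, with sums of 18.7 to 69.8. Those of plasmacytoid dendritic cells, the main producers of interferon alpha, summed to at most 19.3, and all 4 were at 0 in mouse A128.

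**Figure D5:**
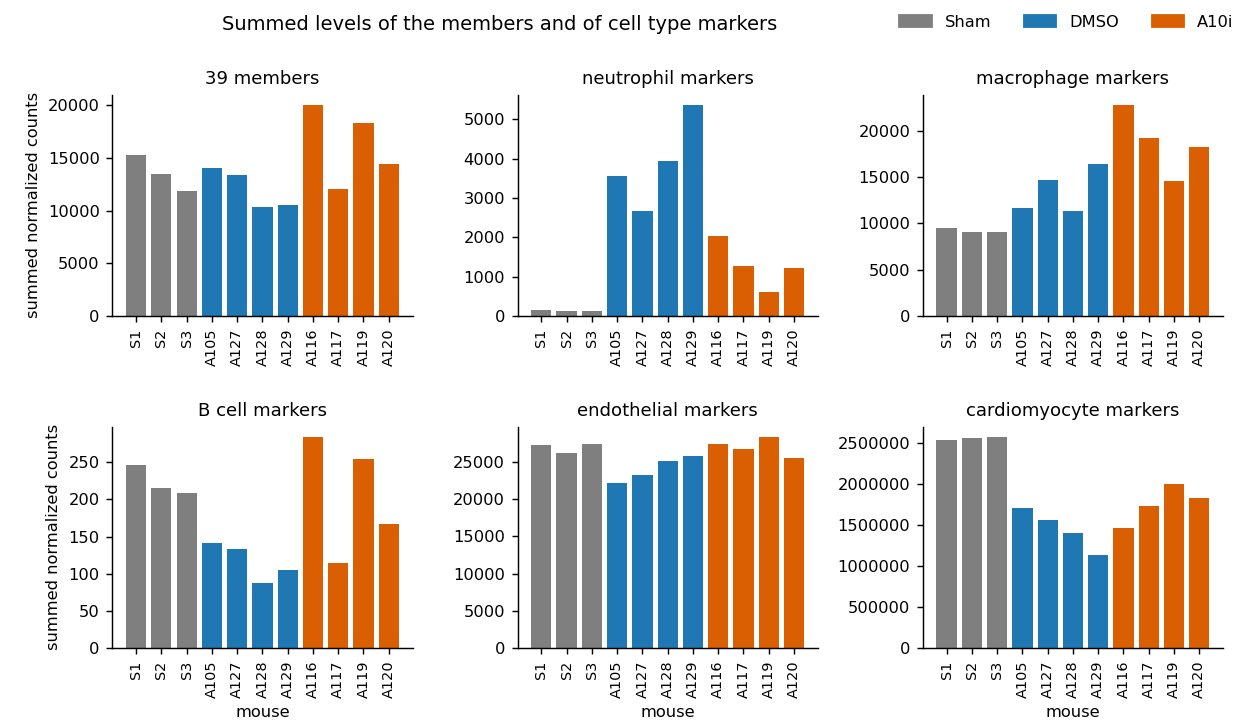
Summed normalized counts (y, from 0) of the 39 members and of 5 lists of cell type markers in each mouse (x), in grey for sham, blue for DMSO and orange for A10i mice. The members and the B cell markers are highest in A116 and A119 of the infarcted mice and low in A117, whereas neutrophil markers are lower in every A10i than in every DMSO mouse.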

How the data were processed

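Poly(A) RNA of 11 mouse hearts (3 sham, 4 DMSO, 4 A10i) had been made into strand-specific libraries and sequenced as read pairs. The authors demultiplexed with bcl2fastq 2.20.0, used GSNAP for alignment to mm10 (GRCm38) and assigned the reads with a unique alignment to Ensembl genes in featureCounts 2.0.1, and the deposited values are these raw counts, without normalization. The strand setting of the counting is not given in the sources used here, so overlapping genes on opposite strands cannot be told apart. The gene length deposited beside the counts was used for levels per kilobase. Symbols came from GENCODE M21 and promoters from RefSeq. Files were grouped by the labels, which name each mouse. No replicate pair agreed within counting error (chi-square per degree of freedom 4.04 to 60.8 over 15 pairs).

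Each comparison was fitted on its own libraries in R 4.3.3 with edgeR 4.0.16 (filterByExpr, TMM, robust quasi-likelihood F-test, two-sided, Benjamini-Hochberg adjustment over all genes tested, threshold 0.01). The SE of a log2 fold change was its size divided by the square root of F. The fitting was tested on simulated counts. DESeq2 1.42.0, other scalings, filters and thresholds, a joint fit and the omission of each mouse were the alternatives. Some listed genes are not reported here and were left out of the lists. The members, pathway genes, markers and rules were chosen with earlier results of these data known. All members are named. Per role, values of each mouse are given for the member with the highest mean count, the largest change in DMSO against sham mice and the smallest p in A10i against DMSO mice, and up to 3 other pathway genes per role with the smallest p are named. Values of Ifi27l2a, Cmpk2, Xaf1, Isg15 and Ifi44 in each mouse were added after they were seen.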

Additional observations from a re-analysis of the deposited data

Results flagged for a closer look

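Each member was searched for an outlying mouse in the 4 DMSO and the 4 A10i mice, by the gap of the highest or lowest mouse to its neighbour relative to the whole range (above Dixon's 95% critical value). None of the 78 groups of 4 passed, where chance gives about 1 in 20, or 3.9. Groups of 3 sham mice were not tested.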

How the results depend on the processing

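With 3 or 4 mice per group, counts of called members were small and moved with single mice. In DMSO against sham mice the 4 higher members became 7 at a threshold of 0.05, 2 with at least 10 counts required in every library (37 members tested) and 2 to 6 when each mouse was left out. The 3 lower members became 10 at 0.05, 8 with DESeq2, 7 without a filter on low counts and 1 to 6 when each mouse was left out. In A10i against sham mice the 4 higher members became 12 at 0.05, 11 with DESeq2, 7 with library size alone, 2 with the stricter filter and 1 to 11 when each mouse was left out, and the 0 lower members became 1 at 0.05 and 1 without a filter. Between A10i and DMSO mice DESeq2 called 2 members and the other alternatives 0. The adjusted p of Rsad2 in that comparison ranged from 0.000376 (DESeq2) to 0.198 (without A120) and that of Ifi27l2a from 0.00864 (DESeq2) to 0.254 (without A119). Beside the DESeq2 counts stand 11.4% of all genes (lower, DMSO against sham), 14.8% (higher, A10i against sham) and 0.573% (higher, A10i against DMSO). For the other alternatives no share of all genes is given, so these counts do not set the members apart. The causes of these changes were not tested.

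Library size alone in place of TMM raised the median log2 fold change of all genes to 0.21 in DMSO and 0.18 in A10i against sham mice. It turned the sign of Stat2 (0.072), Ifit1 (0.075), Usp18 (0.15) and Irgm1 (0.024) in DMSO and of Ifit3b (0.15), Herc6 (0.095), Mx2 (0.066), Parp14 (0.13) and Gbp3 (0.054) in A10i against sham mice, all below that shift. Igtp in A10i against DMSO mice became 0.0017 with library size alone and 0.00076 with the stricter filter. None of these was called. When each mouse was left out, signs also turned in DMSO against sham mice for Ddx58 (-0.015 to 0.11), Irf7 (-0.16 to 0.19), Irf9 (-0.032 to 0.10), Ifit1 (-0.35 to 0.089), Usp18 (-0.25 to 0.085), Ifi35 (-0.0080 to 0.14) and Rtp4 (-0.071 to 0.37). They turned in A10i against sham mice for Ifit2 (-0.064 to 0.23), Ifit3b (-0.25 to 0.17), Oas2 (-0.063 to 0.20), Herc6 (-0.33 to 0.065), Mx2 (-0.26 to 0.024), Parp14 (-0.17 to 0.050) and Gbp3 (-0.27 to 0.066), and in A10i against DMSO mice for Zbp1 (-0.097 to 0.50) and Igtp (-0.17 to 0.12). No paired analysis was possible because the labels give the mice of the groups no shared numbers.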
